A study of Mus musculus with 2 samples.

Results

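The genes described here encode the nuclear subunits of the mitochondrial respiratory chain and ATP synthase. They were taken by name: every symbol of the panel that starts with Ndufa, Ndufb, Ndufc, Ndufs, Ndufv, Sdh, Uqcr, Cox4, Cox5, Cox6, Cox7, Cox8 or Atp5, which gave 84 of 19465 genes. Of these, 71 were classed as subunits (33 of complex I, 4 of complex II, 7 of complex III, 14 of complex IV and 13 of complex V). A further 10 encode assembly factors of complexes I and II. The other 3, Cox7a2l, Ndufa4l2 and Ndufb1-ps, were placed in neither class. Ndufb1-ps, with 7529 UMIs, is therefore not in the sums of complex I. The sums below are over the 71 subunit genes. A total of 83 members had at least 1 UMI (a counted molecule) and 1, Cox8c, had none. At least 500 UMIs were counted for 66 members, among them 56 subunit genes, and 15 subunit genes had fewer. Of the 13 subunit genes of the mitochondrial genome, 0 were in the panel. Nuclear subunits with other symbols are not part of the sums. The panel does not cover every subunit: Cox4i1, Cox5a and Cox6b1 of complex IV were not among its symbols. Levels of complex IV below are therefore sums over the 14 genes present. Of their 75939 UMIs, Cox8a held 24902, Cox5b 19786 and Cox6a1 18725.

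The study measured brain sections of male mice at 6 months of age, one labelled G2-3, a line carrying A53T alpha-synuclein, and one labelled wild type, with probe-based Visium spatial transcriptomics. Each group has 1 section, and what drives transgene expression is not stated in its labels. The count matrix, gene list and barcode list deposited for both samples were identical byte for byte, so the samples share all 2722 barcodes and hold 1 library. No genotype was therefore assigned and no comparison of genotypes was made.

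All values compare regions within that library, without replicates, so no test was possible. Intervals are exact 95% intervals that cover counting error only, not the difference between animals. The 2485 spots used held 20997947 UMIs, between 1183 and 80174 per spot with a median of 6686. A spot takes in several cells, and fewer cells of a type and less RNA per cell cannot be told apart. Levels are given as CPM, UMIs of the named genes per 1000000 UMIs of the same spots. Probes differ in yield between genes, so a gene's level is set only against its own level elsewhere.

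The respiratory chain passes electrons from NADH (complex I) and succinate (complex II) through complex III and cytochrome c to oxygen at complex IV, also called cytochrome c oxidase, and complex V uses the resulting proton gradient to make ATP. Most subunits are encoded in the nucleus, and several of the small subunits of complex IV exist as isoforms that replace each other in different tissues. In brain the chain supplies most of the ATP spent on ion pumping and synaptic transmission.

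Subunit RNA made up 2.04% of the library, 428324 UMIs or 20398 CPM. Spots were grouped into 17 regions, called by their leading genes, without using any member to form them. The level was 28254 CPM (27422 to 29104) in the Slc18a3/Cartpt region, 22 spots that also led with Prph and Nefm, genes of motor neurons and large axons. The region led by the dopamine genes Slc6a3 and Th stood at 25278, the Gpr161/Fezf2 region at 24467, the Irx2/Cdh23 region (hindbrain by its markers) at 24409 and the Six3/Ttr region at 23818. Intermediate levels were found in the Ddn/Thrsp region (22257), the Tph2/Slc18a2 region (22044), the Pirt/Cplx3 region (21490) and the Cartpt/Tcf7l2 region (dorsal midbrain, 20218). The white matter (Klk6/Gfap, 19413), layer 6b of cortex (Ccn2/Cplx3, 19364) and the Myl4/Col5a1 (18994), Tshz2/Nrep (18706) and Penk/Adam33 (18669) regions followed. Lowest were the meninges (Mgp/Igf2, 16738), upper cortex (Clec18a/Igfn1, 16636) and the dentate gyrus (C1ql2/Pcdh20, 16620).

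The 5 regions led by Slc18a3, Slc6a3, Gpr161, Irx2 and Six3 thus held the high end, and upper cortex, the meninges and the dentate gyrus the low end. From highest to lowest the level differed 1.70-fold (log2 0.77, interval 0.72 to 0.81). The interval of the ratio between neighbours in this order included 0 for 7 of 16 pairs, among them both pairs within the 3 lowest regions. Single spots overlapped widely: the share of subunit UMIs ran from 1.40% to 2.38% in the dentate gyrus with a median of 1.73%, and from 1.71% to 3.55% in the Slc6a3/Th region with a median of 2.48%. Of the 42 spots at 3% or more, 16 lay in the Six3/Ttr region, 9 in the Slc6a3/Th region and 7 in the Slc18a3/Cartpt region, where they were 31.8% of its spots. Spots were also thinned to 2000 UMIs, and those with fewer were left out, which kept 127 of 163 spots of white matter. The Slc18a3/Cartpt region was again first (27818) and upper cortex was last (16696). The dentate gyrus moved from rank 17 to rank 15 (17675), above the meninges (17079).

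Gene by gene, each region was set against all other spots over the 64 subunit genes with at least 100 UMIs. In the Slc18a3/Cartpt region 25 were at least 1.5-fold higher and 1 at least 1.5-fold lower, beside 24.6% and 24.6% of all genes. However, 1 of the 25, Cox7c, had 0 UMIs in this small region. It passed only because a count of 0 was set to 3 for the ratio, so it was not seen to be higher. The same rule holds for the shares of all genes. In the Slc6a3/Th region it was 25 and 1, beside 18.6% and 17.9%, and in the Ddn/Thrsp region 11 and 4, beside 18.7% and 27.9%. The dentate gyrus had 1 higher and 18 lower (15.6% and 29.9% of all genes), the meninges 1 and 12 (17.6% and 25.3%), and upper cortex 1 and 11 (7.19% and 17.2%). The share of lower subunit genes in the last 3 regions thus did not exceed that of all genes. The single lower gene in both of the first regions was Cox6a2.

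**Figure D1:**
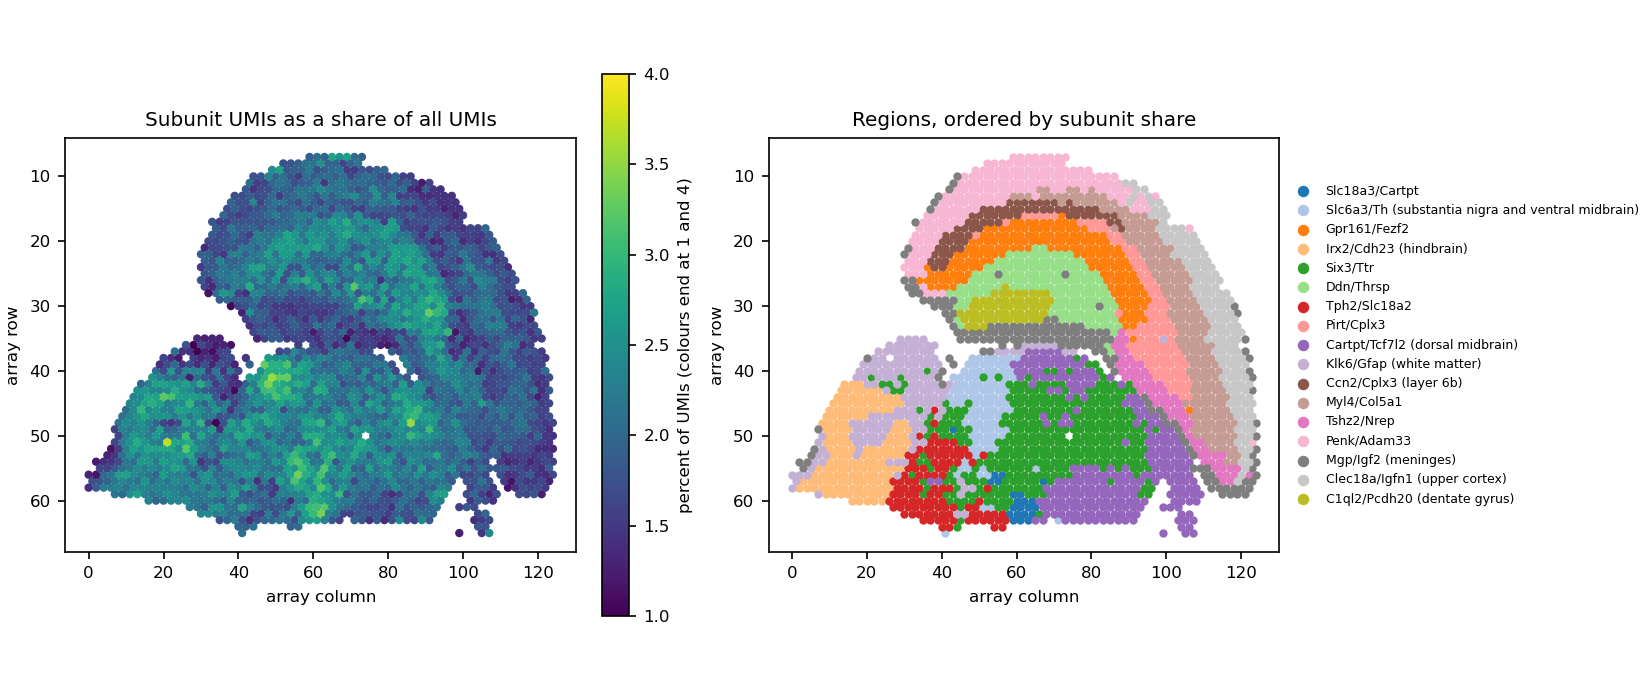
Left, the share of subunit UMIs in each of the 2485 spots at its place on the array (percent of the spot's UMIs); right, the 17 regions in order of their subunit share. The 42 spots at 3% or more lie mainly in the Six3/Ttr (16), Slc6a3/Th (9) and Slc18a3/Cartpt (7) regions, and the dentate gyrus, meninges and upper cortex are low.

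Complexes I, II, III and V followed each other over the regions, and complex IV less so. Over 17 regions, which share 1 library, the correlation of log2 levels lay between 0.80 and 0.94 for pairs among complexes I, II, III and V, and between 0.34 and 0.65 for pairs with complex IV. Complex I reached its highest level in the Slc18a3/Cartpt region (12324 CPM) and its lowest in the meninges (6585). Complex II was also highest there (1157) and was lowest in upper cortex (649). Complex III was highest in the Slc6a3/Th region (2919) and lowest in upper cortex (1547). Complex V ranged from 8033 in the Slc18a3/Cartpt region to 4424 in upper cortex.

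Complex IV, as a sum over the genes present, had another order. Gene by gene, 5 of its 7 genes with at least 500 UMIs correlated above 0.5 with the other subunits, with a median of 0.72. Cox8a (0.30) and Cox6a2 (-0.54) did not. The summed level of complex IV was highest in the Ddn/Thrsp region, at 5704 CPM (5502 to 5911), where complexes I and V ranked 10 of 17. It was lowest in the dentate gyrus, at 2339 (2269 to 2411). Complex IV supplied 25.6% of subunit UMIs in the Ddn/Thrsp region, 14.1% in the dentate gyrus and 14.8% in both the hindbrain and the Tph2/Slc18a2 region. In the hindbrain, where complexes I, II, III and V were each above all other spots by a log2 of 0.31 to 0.37, complex IV stood at -0.00 (-0.04 to 0.03).

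**Figure D2:**
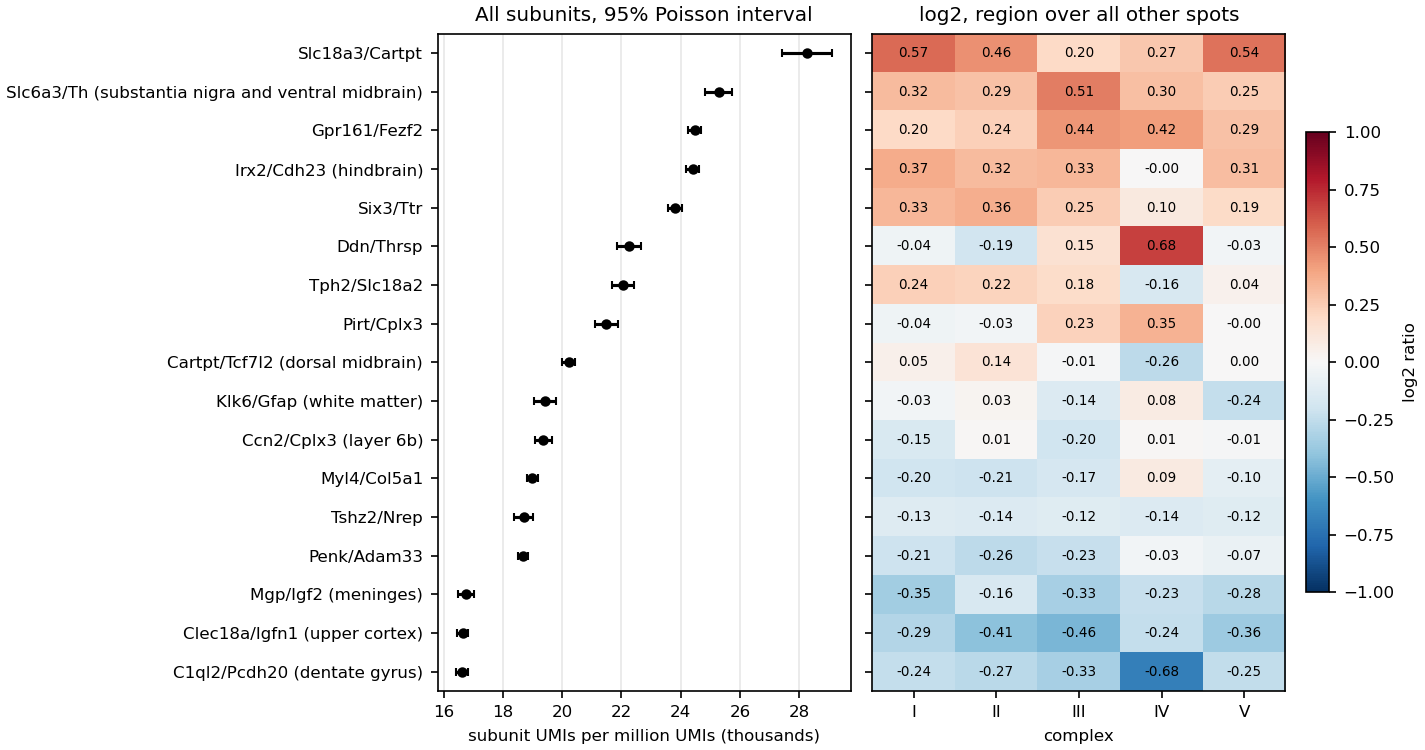
Left, subunit CPM in each region (points) with exact 95% Poisson intervals (bars; the axis does not start at 0); right, the log2 ratio of each region to all other spots for each complex. Complex IV departs from the other columns in the Ddn/Thrsp region (0.68), the dentate gyrus (-0.68) and the hindbrain.

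Most single genes followed the whole set. Of the 56 subunit genes with at least 500 UMIs, 50 had a correlation above 0.5 with the sum of the other subunits over the 17 regions. The median was 0.72, and 1 gene, Cox6a2, was below 0 (-0.54). The share of all genes above 0.5 is not given here, so how unusual this count is cannot be read from it. The median gene differed 2.38-fold between its highest and lowest region. On a scale of CPM plus 1 the median range was 2.36-fold for these genes and 3.18-fold for all 6878 genes with at least 500 UMIs. Of the subunit genes 21.4%, against 13.3% of all, stayed within a 2-fold range. The 2 sets share this minimum but were not matched on counts, and counting error widens the range of sparse genes. The Slc6a3/Th region was the highest for 21 of the 56 and the Slc18a3/Cartpt region for 18. The meninges were the lowest for 15 and upper cortex and the dentate gyrus for 12 each. The Slc6a3/Th and Slc18a3/Cartpt regions held the fewest UMIs, 487849 and 154741, where counting error is largest. The shares of all genes with their extremes in these regions are not given here.

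The genes of narrowest range were Ndufa8 and Ndufa13, accessory subunits of the membrane arm of complex I, Uqcrc2, a core protein of complex III, Atp5e of the central stalk of ATP synthase, and Cox5b, a zinc-binding subunit of complex IV. Ndufa8 ran from 164 CPM in the meninges to 259 in the Six3/Ttr region, which is 1.58-fold. Cox5b ran from 712 in the meninges to 1220 in the Gpr161/Fezf2 region, or 1.71-fold. The least like the other subunits within their complexes were Ndufv3 of complex I (correlation 0.24), Sdhd of complex II (0.29), Uqcr11 of complex III (0.53), Cox6a2 of complex IV and Atp5g1 of complex V (0.24).

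Wide ranges were found in complexes I, III, IV and V. Uqcrh, the acidic hinge protein at cytochrome c1 of complex III, was at 67.8 CPM in the dentate gyrus, 93.7 in cortex, 253 in the Ddn/Thrsp region and 340 in the Slc6a3/Th region. Its highest and lowest regions thus differed 5.02-fold (log2 2.33, interval 1.98 to 2.68). Cox6a1, the broadly expressed isoform of subunit 6A, ran from 417 in the dentate gyrus to 1540 in the Ddn/Thrsp region, or 3.70-fold. Cox8a, the broadly expressed isoform of subunit 8, had the same 2 extremes at 694 and 2280, or 3.29-fold. Both genes were therefore lowest and highest in regions that touch: 20 of the 57 spots of the dentate gyrus had a neighbour in the Ddn/Thrsp region.

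Ndufa12, an accessory subunit of complex I, ran from 34.5 in the dentate gyrus to 135 in the Slc6a3/Th region (3.92-fold), and Atp5mpl, a small proteolipid of complex V, from 39.5 to 150 between the same regions (3.79-fold). Cox7b was lowest in upper cortex (59.2) and highest in the Slc6a3/Th region (207, 3.50-fold), and Cox7a2 ran from 63.5 in the Penk/Adam33 region to 209 in the Slc6a3/Th region (3.29-fold). Atp5c1, the gamma subunit of the central stalk, ran from 21.4 in upper cortex to 77.5 in the Slc18a3/Cartpt region (3.62-fold, log2 interval 0.79 to 2.81). The first 4 of these genes had their lowest level in the dentate gyrus, upper cortex or the Penk/Adam33 region and their highest in the Slc6a3/Th region.

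**Figure D3:**
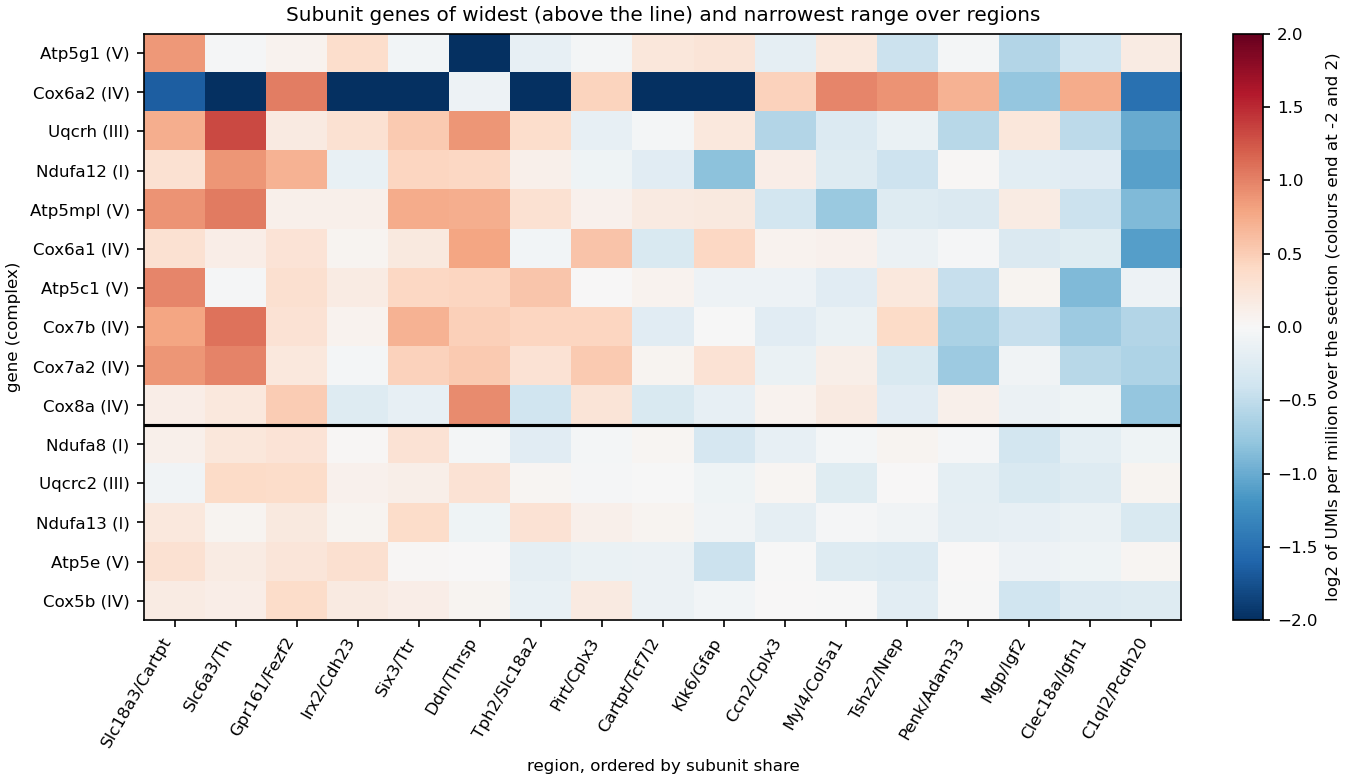
Each cell is the log2 of a gene's CPM in a region (columns, ordered by subunit share) over its level in the whole section, for the 10 subunit genes of widest range (above the line) and the 5 of narrowest range (below). Counts under 3 are drawn at 3. Cox6a2 and Atp5g1 do not follow the order of the regions, and Uqcrh, Cox6a1 and Cox8a are lowest in the dentate gyrus (C1ql2/Pcdh20).

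Promoter sequences are shown for 8 of the genes on which these patterns turn: Cox6a1 and Uqcrh with their wide ranges, the isoform pairs Cox7a1 and Cox7a2 and Atp5g1 and Atp5g3, Ndufs6 with its high level in the Slc6a3/Th region, and Sdhd, which had the highest ratio of the dentate gyrus to cortex among the 56 subunit genes with at least 100 UMIs over both. RefSeq promoters of build GRCm38.p6 were matched by symbol for 67 of the 84 members and 57 of the 71 subunit genes. Each line gives the 170 bases that precede the gene start, 5′ to 3′ on the gene's strand. Capitals mark matches to the palindromic motif of NRF1, a regulator of respiratory genes (10 letters, 1 of them free), CCGGAAG (the core motif of ETS factors such as GABPA), AAGGTCA (that of estrogen-related receptors) or AAGATGGCG (that of YY1), on either strand, and matches may overlap.
Cox6a1, chr5:115348959-115349128, minus strand: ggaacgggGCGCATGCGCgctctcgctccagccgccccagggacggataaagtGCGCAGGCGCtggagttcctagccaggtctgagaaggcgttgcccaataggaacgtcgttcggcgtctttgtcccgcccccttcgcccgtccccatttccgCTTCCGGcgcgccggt
Uqcrh, chr4:116075071-116075240, minus strand: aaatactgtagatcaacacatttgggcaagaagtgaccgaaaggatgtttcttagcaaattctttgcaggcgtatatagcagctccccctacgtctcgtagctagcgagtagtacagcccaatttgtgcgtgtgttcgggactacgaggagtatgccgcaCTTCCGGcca
Ndufs6, chr13:73328483-73328652, minus strand: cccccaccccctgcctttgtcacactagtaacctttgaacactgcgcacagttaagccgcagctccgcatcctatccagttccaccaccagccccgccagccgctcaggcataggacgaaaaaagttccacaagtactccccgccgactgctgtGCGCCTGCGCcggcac
Sdhd, chr9:50603850-50604019, minus strand: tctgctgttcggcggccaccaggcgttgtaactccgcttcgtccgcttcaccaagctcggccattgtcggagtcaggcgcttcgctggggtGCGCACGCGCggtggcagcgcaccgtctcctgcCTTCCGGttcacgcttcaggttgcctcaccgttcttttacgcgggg
Cox7a1, chr7:30184001-30184170, plus strand: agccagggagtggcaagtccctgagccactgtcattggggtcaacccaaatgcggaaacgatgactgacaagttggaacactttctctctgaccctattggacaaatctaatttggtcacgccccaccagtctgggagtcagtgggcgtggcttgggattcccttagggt
Cox7a2, chr9:79759854-79760023, minus strand: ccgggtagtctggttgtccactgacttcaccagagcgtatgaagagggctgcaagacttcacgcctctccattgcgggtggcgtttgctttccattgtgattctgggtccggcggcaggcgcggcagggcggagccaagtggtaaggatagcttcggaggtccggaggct
Atp5g1, chr11:96075632-96075801, minus strand: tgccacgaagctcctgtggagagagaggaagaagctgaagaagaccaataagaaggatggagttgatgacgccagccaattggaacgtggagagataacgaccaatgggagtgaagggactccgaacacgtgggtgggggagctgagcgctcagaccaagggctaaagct
Atp5g3, chr2:73911327-73911496, minus strand: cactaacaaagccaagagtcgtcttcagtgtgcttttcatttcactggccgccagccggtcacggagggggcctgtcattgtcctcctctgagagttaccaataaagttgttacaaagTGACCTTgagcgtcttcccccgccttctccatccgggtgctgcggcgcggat

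In these windows Cox6a1 held 2 NRF1 matches and 1 ETS match, Sdhd 1 of each, Ndufs6 an NRF1 match, Uqcrh an ETS match and Atp5g3 a match for estrogen-related receptors. Cox7a1, Cox7a2 and Atp5g1 held none of the 4 motifs here. Over the full 300 bases of the table, from 250 before the start to 50 after it, the NRF1 motif was found for 15 of 57 subunit genes (26.3%) against 5.19% of 27025 genes, and the ETS motif for 14 (24.6%) against 9.93%. Matches for estrogen-related receptors were found for 8 (14.0%) against 5.38%, and YY1 matches for 5 (8.77%) against 1.64%. No motif was found for 27 subunit genes (47.4%) against 80.1% of all. By complex, the NRF1 motif was in 7 of 29 genes of complex I, 2 of 3 of complex II, 1 of 5 of complex III, 1 of 10 of complex IV and 4 of 10 of complex V. A match is a description of the letters and not of binding.

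The dentate gyrus, where granule cell bodies are packed closely, was compared with cortex (upper cortex and layer 6b together, 223 spots). The summed subunits were nearly level, at 16620 against 17531 CPM (log2 -0.08, interval -0.10 to -0.06). Of 56 subunit genes with at least 100 UMIs over both regions, 1 exceeded cortex by 1.5-fold or more, as did 15.6% of all 6975 genes with that minimum, and 4 were at least 1.5-fold lower, as were 18.7%. In either direction that is 5 subunit genes, beside 34.3% of all genes. The difference was in complex IV, at a log2 of -0.49 (-0.54 to -0.43), while complexes I, II, III and V lay between -0.01 and 0.04.

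That difference in complex IV lay in 3 members. Cox6a2, the isoform of subunit 6A known from heart and skeletal muscle, was counted at 21.7 CPM against 95.7 in cortex (log2 -2.14, interval -2.67 to -1.66). Cox6a1 was at 417 and 813 (-0.96, -1.08 to -0.84) and Cox8a at 694 and 1160 (-0.74, -0.83 to -0.64). Without these 3 genes, chosen after their values were seen, the other 11 genes of complex IV stood at 1206 and 1211 CPM (-0.01, -0.08 to 0.07).

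Ndufa12 of complex I was also lower, at 34.5 against 68.6 (-0.99, -1.43 to -0.58), and Atp5mpl of complex V was at 39.5 against 54.9, short of 1.5-fold. The gene past 1.5-fold in the other direction was Sdhd, a membrane anchor of complex II, at 82.8 against 54.6 (0.60, 0.27 to 0.93). Atp5g1 (0.48), Ndufs3, a core subunit of the quinone module (0.47), Atp5c1 (0.47) and Atp5l, subunit g of the membrane part (0.43), were next and stayed under 1.5-fold. The dentate gyrus had the deepest spots, with a median of 29690 UMIs against 12252 in cortex. Within it, the 28 deeper spots were below the 29 shallower ones in summed subunits (-0.20, -0.24 to -0.16), and most so in complex IV (-0.57, -0.66 to -0.48). After thinning to 2000 UMIs per spot the sum was at 0.02 (-0.05 to 0.09), and against the 52 cortex spots in the lower columns of the array, where all spots of the dentate gyrus lie, it was at -0.25 (-0.28 to -0.23), so its size and direction are not settled.

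Next to the dentate gyrus lay a region led by Ddn, which encodes a protein of dendrites, together with Thrsp and Gng7, 150 spots with a median of 3302 UMIs. No cell type name was reached by its markers. Subunit RNA was higher there than in the dentate gyrus, 22257 against 16620 CPM (log2 0.42, interval 0.39 to 0.45), and the complexes differed in how much: 1.29 (1.22 to 1.35) for complex IV, 0.45 for complex III, 0.20 for complex V, 0.17 for complex I and 0.06 (-0.10 to 0.23) for complex II. Of 51 subunit genes measured, 20 were at least 1.5-fold higher, against 17.3% of all 4740 genes, and 0 were at least 1.5-fold lower, against 39.2% (56.5% of all genes in either direction). The median subunit gene was at 0.39 and the median of all genes at -0.35.

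The 20 higher genes included 5 of the 6 measured genes of complex IV, 4 of 6 of complex III, 6 of 25 of complex I, 4 of 10 of complex V and 1 of 4 of complex II. Uqcrh stood at 253 CPM against 67.8 in the dentate gyrus, 3.74-fold (log2 1.90, interval 1.54 to 2.27). Cox6a1 was at 1540 against 417 (3.70-fold) and Cox8a at 2280 against 694 (3.29-fold). Atp5mpl (121 against 39.5, 3.07-fold) and Ndufa12 (98.3 against 34.5, 2.85-fold) followed.

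Further genes above 2-fold were Ndufb9 (2.56-fold), Ndufs6 (2.45-fold), Cox7a2 (2.21-fold), Ndufc2 (2.13-fold), Cox7b (2.09-fold) and Uqcrfs1, the Rieske iron-sulfur protein of complex III (2.01-fold). Among the lowest, Ndufs3, a core subunit of complex I, was at 130 against 183 (-0.49, -0.89 to -0.11), Ndufs8 at 403 against 543 (-0.43) and Atp5b, the catalytic beta subunit of ATP synthase, at 656 against 868 (-0.40, -0.58 to -0.23). Ndufa9 (-0.43), Ndufb6 (-0.39) and Ndufab1, the mitochondrial acyl carrier protein (-0.39), were also among the lowest. Without Cox6a1 and Cox8a, complex IV was still higher at a log2 of 0.62 (0.51 to 0.72).

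Cell content moved with this comparison. The 8 astrocyte markers summed to 12900 CPM in the Ddn/Thrsp region and 1760 in the dentate gyrus, the 12 white matter markers to 7190 and 527, the 4 blood markers to 7520 and 747, and the 7 microglia markers to 1010 and 147, and every marker of these 4 lists was detected in both regions. Their part in the result was not tested. Depth moved too, and against the shallower spots of the dentate gyrus alone the complex IV ratio was 0.89 (0.80 to 0.98), against 1.46 (1.38 to 1.53) for the deeper ones. In UMIs per spot without scaling, the direction turned, to a log2 of -2.74.

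The Slc6a3/Th region, 103 spots with 9 of 10 nigral markers raised, was compared with cortex. Dopamine neurons of the midbrain are known for long, highly branched axons and a high demand for ATP. Summed subunits were 25278 against 17531 CPM (log2 0.53, interval 0.50 to 0.56), and the direction was shared by most members: 26 of 54 genes measured were at least 1.5-fold higher, against 18.2% of all 6100 genes, and 1 was at least 1.5-fold lower, against 23.4% (41.7% of all genes in either direction). The interval lay above 0 for 50 of the 54. By complex the ratio was 0.83 (0.75 to 0.92) for complex III, 0.54 for complex I, 0.52 for complex II, 0.46 for complex V and 0.43 for complex IV.

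Uqcrh was again the member of highest ratio, at 340 against 93.7 CPM (3.63-fold, log2 1.86, interval 1.57 to 2.14). Cox7b was at 207 against 67.3 (3.08-fold), Ndufs6, an accessory subunit of the NADH module, at 178 against 64.5 (2.76-fold), Atp5mpl at 150 against 54.9 (2.73-fold) and Cox7a2 at 209 against 79.6 (2.63-fold). Cox6c, Atp5j (factor 6 of the peripheral stalk), Uqcr10, Atp5l and Sdhc were each between 2.29-fold and 2.56-fold higher. The member past 1.5-fold in the other direction was Cox6a2, with 4 UMIs in the region and 279 in cortex (log2 -3.55, interval -5.43 to -2.17). Ndufb6 (-0.13), Atp5d of the central stalk (0.00), Ndufs3 (0.17) and Ndufa13 (0.21) were near level.

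Summed subunit levels were not higher in the spots with more dopamine gene UMIs, but the complexes differed. Within the region, 35 spots with at least 5 UMIs of Th, Slc6a3 and Slc18a2 had 24411 subunit CPM (23718 to 25120), the 46 spots with 1 to 4 such UMIs had 25985 (25303 to 26680), and the 22 spots with none had 25479 (24407 to 26586). Upper and lower array rows differed more: the 57 spots up to the region's median row, with 142 UMIs of the 3 dopamine genes, stood at 27180 (26558 to 27813), and the 46 spots past it, with 383 such UMIs, at 22981 (22354 to 23622). Complex IV was at 5193 in the former and 3476 in the latter. White matter markers were at 11600 and 20400 and astrocyte markers at 4830 and 2870 in these sets, and their part was not tested. Over the spots with none, 1 to 4 and 5 or more dopamine gene UMIs, complex I was at 9676, 10344 and 10591 CPM. Complex II was at 971, 1027 and 1051, and complex III at 2746, 3054 and 2845. Complex IV was at 5264, 4576 and 3870, and complex V at 6822.5, 6984 and 6055. Astrocyte markers were at 6610, 3820 and 2920, and their part was not tested. These splits were chosen after the map was seen. Against the 52 cortex spots in the lower columns of the array alone, the summed ratio was 0.35 (0.32 to 0.39), with 17 of 48 genes past 1.5-fold, and with TMM scaling of the same sums it was 0.34. White matter markers summed to 15600 CPM in the whole region and 1570 in cortex, and glutamatergic markers to 599 and 7410, and their part in the result was not tested.

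**Figure D4:**
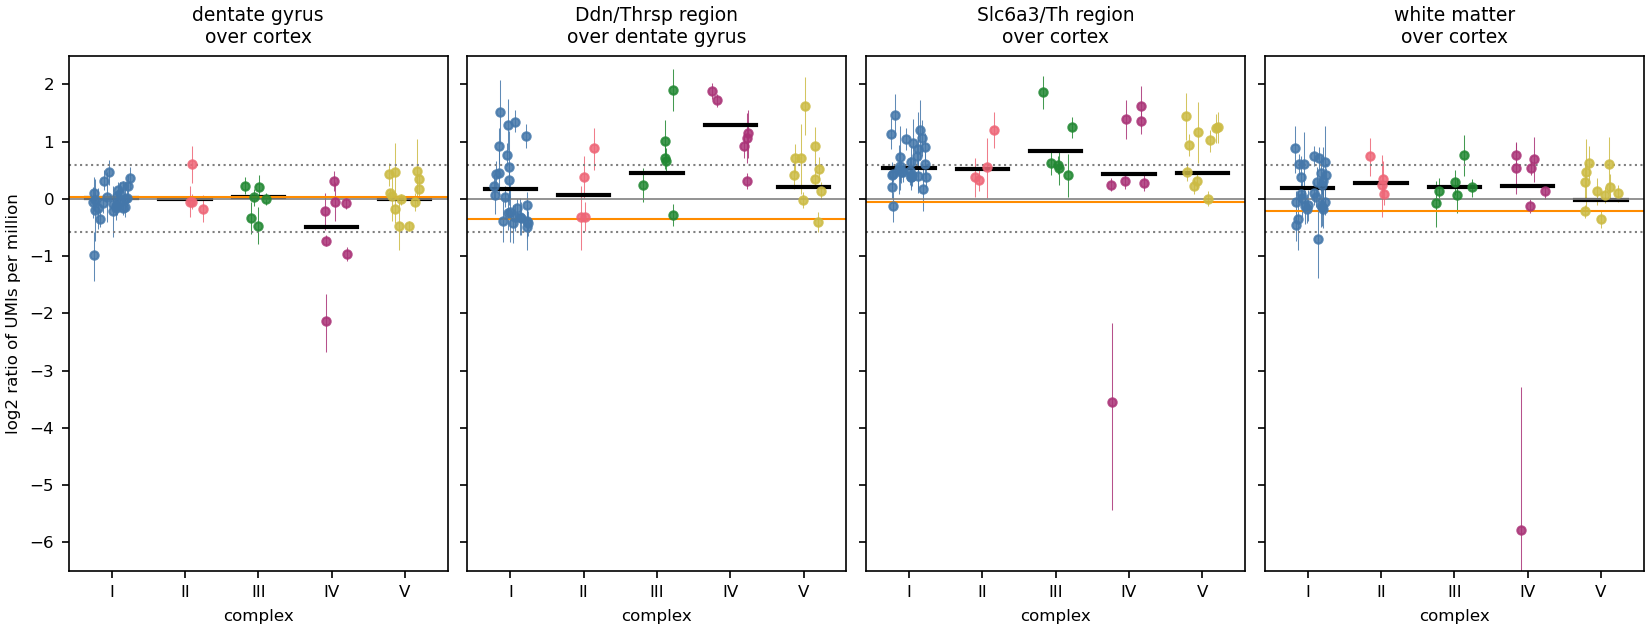
Log2 ratio of CPM for each measured subunit gene (points, with exact 95% intervals) by complex in the 4 comparisons; black bars are the ratio of the summed complex, dotted lines mark 1.5-fold and the orange line is the median of all genes. Intervals of Cox6a2, the lowest point of complex IV, run past the lower end of the axis in white matter. Complex IV stands above the others in the Ddn/Thrsp region over the dentate gyrus (1.29) and below them in the dentate gyrus over cortex (-0.49).

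White matter, where myelin is dense and cell bodies are mainly glial, was close to cortex in summed subunits, 19413 against 17531 CPM (log2 0.15, interval 0.12 to 0.18). Of 54 genes measured, 12 were at least 1.5-fold higher, against 16.2% of all 6169 genes, and 2 were at least 1.5-fold lower, against 31.7% (47.9% of all genes in either direction). Complexes I, II, III and IV lay between 0.19 and 0.27 and complex V at -0.02 (-0.08 to 0.04). Ndufs6 was highest, at 119 against 64.5 (1.84-fold), followed by Cox6c, Uqcrh, Ndufb9 and Sdhc at 1.67-fold to 1.69-fold.

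The lower members in white matter were Cox6a2, with 1 UMI against 279 in cortex (log2 -5.78, interval -11.09 to -3.29), and Ndufa12, at 41.8 against 68.6 (-0.71, -1.39 to -0.10). Ndufb6 (-0.46), Atp5e (-0.36) and Ndufs4 (-0.36, -0.90 to 0.14) were short of 1.5-fold. The 4 blood markers summed to 15200 CPM in white matter and 1030 in cortex, and leaving them out of the totals gave 0.17. The 12 white matter markers were at 42000 and 1570. In the lower columns of the array, with 52 of the cortex spots, the summed ratio was -0.03 (-0.06 to 0.01), so the direction of this small difference is not settled either.

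The isoforms of complex IV divided the section most sharply. Cox6a2, known also from fast-spiking interneurons, fell into a set of regions with clear levels and a set with almost none. Its level was 124 CPM in the Gpr161/Fezf2 region (246 UMIs), 119 in the Myl4/Col5a1 region, 114 in the Tshz2/Nrep region, 102 in upper cortex and 98.7 in the Penk/Adam33 region. It was between 83.0 and 83.7 in the Pirt/Cplx3 region and layer 6b, 56.7 in the Ddn/Thrsp region, 35.5 in the meninges and 21.7 in the dentate gyrus. All other regions were under 10: 8.20 in the Slc6a3/Th region, 6.01 in the Six3/Ttr region, 5.09 in the dorsal midbrain, 3.42 in the Tph2/Slc18a2 region and 1.74 in white matter.

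In the hindbrain region 1 UMI of Cox6a2 was counted among 1953976, a ratio of 243-fold between the Gpr161/Fezf2 region and the hindbrain with a log2 interval of 5.43 to 13.23. The Slc18a3/Cartpt region had 0 UMIs. Cox6a1 was well counted in these same spots, with 1803 UMIs in the hindbrain. As a share of both isoforms, Cox6a2 was 11.9% (10.4 to 13.6) in upper cortex, 12.1% (9.74 to 14.9) in the Tshz2/Nrep region and 4.94% (3.54 to 6.70) in the dentate gyrus, but 0.0554% (0.00140 to 0.308) in the hindbrain. In the Slc18a3/Cartpt region it was 0 of 170 UMIs, which allows a share of up to 1.76%. The 6 fast-spiking interneuron markers, Pvalb among them, summed to 2380 CPM in the hindbrain and 780 in upper cortex. Among regions with clear Cox6a2 levels they were at 873, 891 and 951 CPM in the Gpr161/Fezf2, Myl4/Col5a1 and Tshz2/Nrep regions, and at 234, 296 and 353 in the Ddn/Thrsp region, the dentate gyrus and the meninges. Their part in the Cox6a2 levels was not tested.

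Cox7a1, the heart and skeletal muscle isoform of subunit 7A, had another order, on 456 UMIs in all. It was at 96.9 CPM in the Slc18a3/Cartpt region (15 UMIs), 48.8 in white matter, 46.6 in the meninges, 39.0 in the Six3/Ttr region and 36.3 in the hindbrain, against 5.23 in layer 6b (5 UMIs), 7.66 in upper cortex and 8.33 in the Myl4/Col5a1 region. Hindbrain and upper cortex differed 4.74-fold (log2 2.25, interval 1.43 to 3.16). Its share of the pair with Cox7a2 was 33.3% in the Slc18a3/Cartpt region (15 UMIs beside 30 of Cox7a2), 31.6% (23.8 to 40.2) in the meninges, 27.5% in white matter and 26.2% (21.1 to 31.9) in the hindbrain, and 5.15% (1.69 to 11.6) in layer 6b. The 10 markers of mural cells summed to 1330 CPM in the meninges, 324 in white matter and 76.8 in the hindbrain. They were at 90.5 in the Slc18a3/Cartpt region, where 5 of the 10 were detected, and at 28.3 in layer 6b, where 7 were. In the Ddn/Thrsp region they summed to 380, with Cox7a1 at 28.4. In the Gpr161/Fezf2 region they summed to 73.3, with Cox7a1 at 19.2. The part of mural cells in Cox7a1 was not tested.

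**Figure D5:**
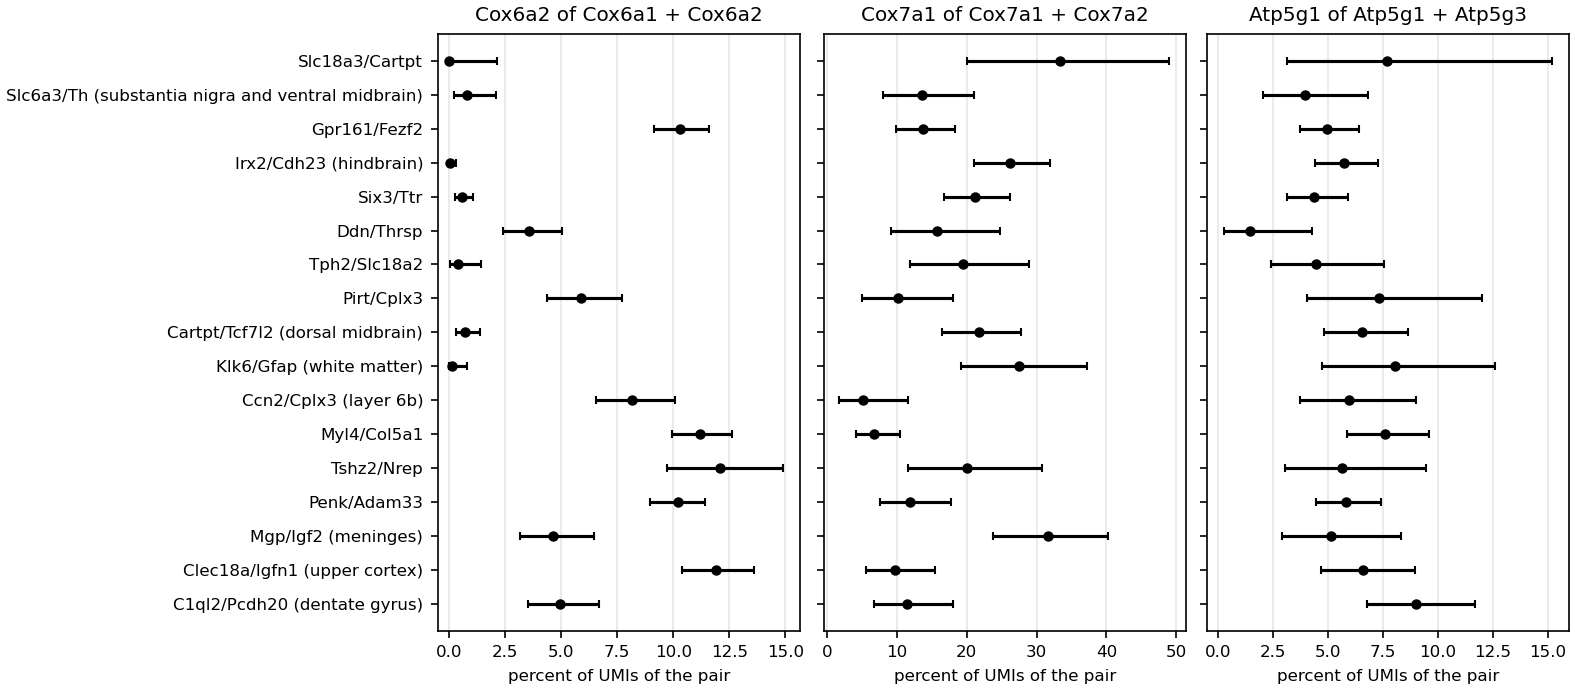
The share of Cox6a2, Cox7a1 and Atp5g1 UMIs in each isoform pair by region (points) with exact 95% binomial intervals (bars), ordered by subunit share. Cox6a2 is at 3.55% or more in 10 regions and at 0.828% or less in the other 7; Cox7a1 is high in the Slc18a3/Cartpt region, meninges, white matter and hindbrain.

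Atp5g1 and Atp5g3 encode the same subunit c of the rotor ring of ATP synthase. The Atp5g1 share of the pair was highest in the dentate gyrus, 9.01% (6.76 to 11.7), and lowest in the Ddn/Thrsp region, 1.49% (0.309 to 4.30) on 3 Atp5g1 UMIs. Atp5g1 itself was at 27.8 and 5.67 CPM in these regions, 4.90-fold apart with a log2 interval of 0.66 to 4.62, and it was between 16.6 and 45.2 everywhere else. The remaining isoforms were scarce: 79 UMIs of Cox4i2, 23 of Cox6b2, 20 of Cox8b and 6 of Cox7b2 were counted, too few for a pattern over regions. Cox4i1, Cox6b1 and Atp5g2 were not in the panel, so Cox4i2 and Cox6b2 had no partner to be set against.

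Assembly factors were higher in the dentate gyrus than in cortex as a sum (log2 0.22, interval 0.10 to 0.35). Of 8 measured, 1 was at least 1.5-fold higher and 0 lower, beside 15.6% and 18.7% of all genes. In the Ddn/Thrsp region over the dentate gyrus their sum was at -0.36 (-0.59 to -0.14), beside a median of -0.35 for all genes. Of 5 measured, 0 were at least 1.5-fold higher and 1 lower, beside 17.3% and 39.2% of all genes. Sdhaf1, an assembly factor of complex II, was at 145 CPM in the dentate gyrus, 102 in cortex and 71.8 in the Ddn/Thrsp region, and its correlation with the subunits over regions was -0.43. In the Slc6a3/Th region assembly factors were higher than in cortex (0.40, 0.21 to 0.59). Cox7a2l, which joins complexes III and IV into supercomplexes, was at 376 in the Ddn/Thrsp region and 275 in the dentate gyrus (0.45, 0.21 to 0.69). Ndufa4l2, a relative of Ndufa4 induced by hypoxia, had 150 UMIs, and Ndufa4 itself was not in the panel.

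Other mitochondrial genes were followed by lists. In the Slc6a3/Th region over cortex, 4 of 12 measured carriers and import genes were at least 1.5-fold higher (Slc25a12, Vdac3, Hspa9 and Slc25a5) and 0 lower, beside 18.2% and 23.4% of all genes. Of 11 glycolysis genes 3 were higher, Pkm, Aldoc and Pgk1, and Pfkl was lower. Among 6 regulators of mitochondrial biogenesis, Ppargc1a, the coactivator PGC-1 alpha, was higher and Yy1 lower. The medians were 0.47, 0.16 and -0.30 in these lists, beside -0.05 for all genes.

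In the Ddn/Thrsp region over the dentate gyrus the counts of each list stand beside 17.3% of all genes past 1.5-fold upward and 39.2% downward. The carrier list had a median of -0.17, beside -0.35 for all genes, and a summed ratio of -0.17. The glycolysis list had a median of -0.31, but its sum was higher in the Ddn/Thrsp region (0.47, 0.42 to 0.52). The assembly factors outside the naming rule had 1 higher, Coa5, and 7 lower of 13. Carriers and import genes had 1 higher and 1 lower of 11, and glycolysis genes 2 higher, Aldoc and Pgk1, and 2 lower, Eno2 and Pfkl, of 11. Oxidant defence genes had Cat and Gpx1 higher of 7 and 0 lower. Aldoc is known from astrocytes. The astrocyte markers were also higher in the Ddn/Thrsp region, as given above, and their part in these ratios was not tested.

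In the dentate gyrus over cortex, among glycolysis genes, Pfkl was higher and Aldoc and Pfkp were lower of 11, and among 6 regulators Ppargc1a and Esrra, the estrogen-related receptor alpha, were lower, beside 15.6% of all genes higher and 18.7% lower. In white matter over cortex, Vdac3 and Slc25a5 were higher of 12 carriers and import genes, and 0 of 6 regulators passed in either direction, beside 16.2% of all genes higher and 31.7% lower.

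Outside the member set, the genes whose level over the 17 regions was most like that of the summed subunits, among 4508 genes with at least 1000 UMIs, were Guk1 (correlation 0.91), Rab2a (0.86), Prdx2 (0.85), Uhmk1 (0.85), Cops9, Tmx2, Psmb6 and Mfsd5 (0.84 each), and Klhdc10 and Atp6v1f (0.83 each). Guk1, guanylate kinase, was at 1190 CPM in the Slc18a3/Cartpt region and 539 in the dentate gyrus. Of the cell lists, that of fast-spiking interneurons correlated at 0.62 with the subunits over regions, white matter at 0.55 and glutamatergic neurons at -0.59, and the median number of UMIs per spot at -0.37. The points of these correlations share 1 library, and their part in the subunit levels was not tested.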

How the data were processed

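UMI counts per gene and barcode are whole numbers that the authors deposited, and the matrix header names Space Ranger 3.1.1 as their source. The build mm10 is named in the submitters' processing notes. Counts were used as deposited and once, with the wild-type position list: 2485 of 2487 spots marked as tissue had at least 500 UMIs, and 2098 of them are marked in the G2-3 list too. Without replicates no p-value was computed.

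Spots were clustered on 2000 variable genes without the members, the other pathway genes and the cell type markers that name no region (log of counts scaled to 10000 per spot, genes scaled, 30 components, 15 neighbours, leidenalg 0.10.2, resolution 1; scanpy 1.11.5). Whether genes were scaled and which Leiden version was used were chosen after leading genes were seen. Doublets were not called, since spots hold several cells. A region took a list's name where at least 3 of its markers were raised 2-fold, more than of any other list, with the region's top marker and at least 1 of its 10 leading genes among them. Ratios of summed counts have exact conditional 95% intervals (scipy 1.17.1), and shares exact Clopper-Pearson ones. A gene was measured with at least 100 UMIs over both regions. Named genes are the 5 highest and 5 lowest ratios per comparison, the 10 widest and 5 narrowest ranges, the least like member of each complex, the isoform pairs and the 10 most like other genes; others were named after their values were seen. The ratio procedure of the 4 comparisons was tested on simulated counts without spread between spots, and the outcome is not given here. The counts of each region against all other spots were not simulated. TMM factors came from edgeR 4.0.16. The members and lists were chosen with earlier results of these data known. The list of tricarboxylic acid cycle genes is not reported here.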

Additional observations from a re-analysis of the deposited data

Results flagged for a closer look

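Subunit UMIs were also counted on barcodes outside the tissue, which no comparison used. The 235 such spots held 12257 subunit UMIs among 697435, or 17574 CPM (17265 to 17888), and 2.78% of all subunit UMIs of the library. Their median was 2507 UMIs per spot. The level lay between that of the meninges and that of the Penk/Adam33 region.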

How the results depend on the processing

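Values are the log2 ratio of summed subunits and the number of subunit genes past 1.5-fold. For the dentate gyrus over cortex (-0.08, 5 genes) the sum was -0.05 with no UMI minimum and with a minimum of 2000, -0.02 over spots marked in both lists, 0.00 at a clustering resolution of 0.6, 1.20 in mean UMIs per spot (53 genes), 0.02 thinned (3 of 33), -0.01 as the mean of spot shares, -0.25 in the lower columns (8 of 51), -0.01 without the 5 subunit genes with most UMIs, -0.04 with genes not scaled, -0.13 with the Myl4/Col5a1 region in cortex and 0.25 with the dentate gyrus pooled with the Ddn/Thrsp and Gpr161/Fezf2 regions. The count was 11 with a minimum of 20 UMIs per gene and 17 at the lower fold tried. Complex IV kept its direction there, -0.49 to -0.40 over the reclusterings.

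For the Ddn/Thrsp region over the dentate gyrus (0.42, 20 genes) the sum was 0.19 at resolution 0.6 (13 genes higher, 2 lower), -2.74 in mean UMIs per spot (51 genes, all lower), 0.34 thinned (9 of 27 genes higher and 2 lower, 11 in all), 0.36 as the mean of spot shares, 0.37 in the lower columns, 0.36 without the top 5 genes and 0.54 with genes 8-fold apart left out of the totals; 37 genes passed the lower fold, 28 higher and 9 lower. With genes not scaled, a minimum of 20 UMIs per gene or all members of the naming rule, 1 gene was lower. Complex IV was at 0.82 to 1.30 over the reclusterings. For the Slc6a3/Th region over cortex (0.53, 27 genes) it was 0.57 with a minimum of 2000, 0.58 over spots in both lists, 0.60 at resolution 0.6, 0.34 with TMM scaling, -0.94 in mean UMIs per spot, 0.35 in the lower columns (17 of 48), 0.64 without the top 5 genes, 0.69 with genes not scaled, 0.65 with igraph Leiden, and 0.48 both with the Myl4/Col5a1 region in cortex and over spots with 5 or more dopamine gene UMIs. Thinned, 15 of 38 genes passed, and 45 at the lower fold.

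For white matter over cortex (0.15, 14 genes) it was 0.19 with no minimum, 0.08 with 2000 (9 genes), 0.25 over spots in both lists, 0.22 at resolution 0.6, 0.11 with TMM scaling, -1.75 in mean UMIs per spot (54), 0.10 as the mean of spot shares, -0.03 in the lower columns (4 of 46), 0.24 without the top 5 genes, 0.26 without genes 8-fold apart, 0.05 with genes not scaled (7) and 0.10 with the Myl4/Col5a1 region in cortex. Thinned, 6 of 37 genes passed, and 24 at the lower fold. Thinning leaves fewer genes measured; the cause of the other changes was not tested. The higher columns were not run, since they hold 0, 0, 1 and 4 spots of a region compared. The unscaled, igraph, Myl4/Col5a1, pooled and dopamine settings were chosen after seeing the data. No paired analysis was possible because there is 1 library.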
